A study of Homo sapiens with 8 samples.

Results

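Ras, Rap and Ral genes encode small GTPases of the Ras subfamily, and 9 of them were examined for acetylation of histone H3 at lysine 27 (H3K27ac), a mark of active promoters and enhancers. They were taken by name as *HRAS*, *NRAS* and *RRAS2* (the Ras branch), *RAP1A*, *RAP1B*, *RAP2A* and *RAP2B* (the Rap branch) and *RALA* and *RALB* (the Ral branch), out of 19974 protein-coding genes on chromosomes with peaks. For each gene, every H3K27ac peak that overlapped the gene or the 20 kb on either side was collected from both cell lines.

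H3K27ac ChIP-sequencing was carried out in MIA PaCa-2 cells, an established line of human pancreatic ductal adenocarcinoma, made into a stable pair of lines with a CRISPR activation system. MP2_HDAC1_OE carried lentiMPHv2 and lentiSAMv2 with a guide RNA that activates *HDAC1*, the gene of a histone deacetylase, and MP2_NTC carried the same machinery with a non-targeting guide, so both lines expressed the activator. Each line had 2 H3K27ac samples and 2 control samples without antibody, and the labels do not say that the samples were separate cultures. The deposited data hold 1 list of reproducible peaks per line, which pools both samples, so there was no replicate value for any peak and no difference between the lines could be tested.

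Small GTPases of this subfamily switch between a GTP-bound state, which binds effectors, and a GDP-bound state, which does not. Guanine nucleotide exchange factors load them with GTP, and GTPase-activating proteins speed up hydrolysis and switch them off. The Ras branch signals to RAF kinases and phosphoinositide 3-kinase, the Rap branch to integrin adhesion and cell junctions, and the Ral branch to the exocyst complex that docks secretory vesicles at the plasma membrane.

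The MP2_HDAC1_OE list held 25045 peaks and the MP2_NTC list 22569. Merging peaks that shared at least 1 bp gave 18678 regions, of which 9477 were shared by both lines, 5337 were unique to MP2_HDAC1_OE and 3864 were unique to MP2_NTC. A region called unique had no peak of the other line in its list, which does not show that acetylation was absent there. The signal of a peak is the positive value its caller gave it. Because the scaling between the lists is unknown, each signal is given with its percentile. This is the share of the other peaks in the same list with a lower signal, with tied values given their average rank. The lists gave no read counts, so depth was unknown and no interval could be set on a single peak. Of 6 epithelial marker genes, only *KRT8* had a peak at its start, in MP2_HDAC1_OE alone, at percentile 50.5. *VIM*, a mesenchymal marker, had peaks in both lines at percentile 86.2 of MP2_HDAC1_OE and percentile 69.1 of MP2_NTC, and the leukocyte, endothelial and fibroblast markers *PTPRC*, *PECAM1* and *DCN* had none. At the start of *HDAC1*, the guide's target, the strongest peak stood at percentile 93.9 in MP2_HDAC1_OE and percentile 45.2 in MP2_NTC.

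Peaks were found at 7 of the 9 genes, and *RAP2A* and *RAP1A* had none in either line. The 7 genes held 15 regions, of which 7 were shared (at 6 genes), 6 were unique to MP2_HDAC1_OE (at *RAP2B*, *RAP1B*, *RALB* and *HRAS*) and 2 were unique to MP2_NTC (at *RALB* and *HRAS*). Over all protein-coding genes, 63.4% had a region of either line within the same window, 51.1% had a shared region, 26.4% had a region unique to MP2_HDAC1_OE and 23.5% had one unique to MP2_NTC. Among the 9 genes the matching shares were 77.8%, 66.7%, 44.4% and 22.2%. With so few genes the 95% Wilson interval of the 44.4% ran from 18.9% to 73.3% and held the background share, so the excess was within counting error. The MP2_HDAC1_OE list had 17 peaks at these genes, with signals from 27.7 to 124 and percentiles from 19.0 to 99.1 (median 49.4). The MP2_NTC list had 12, with signals from 24.3 to 97.4 and percentiles from 13.0 to 92.8 (median 67.6).

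**Figure D1:**
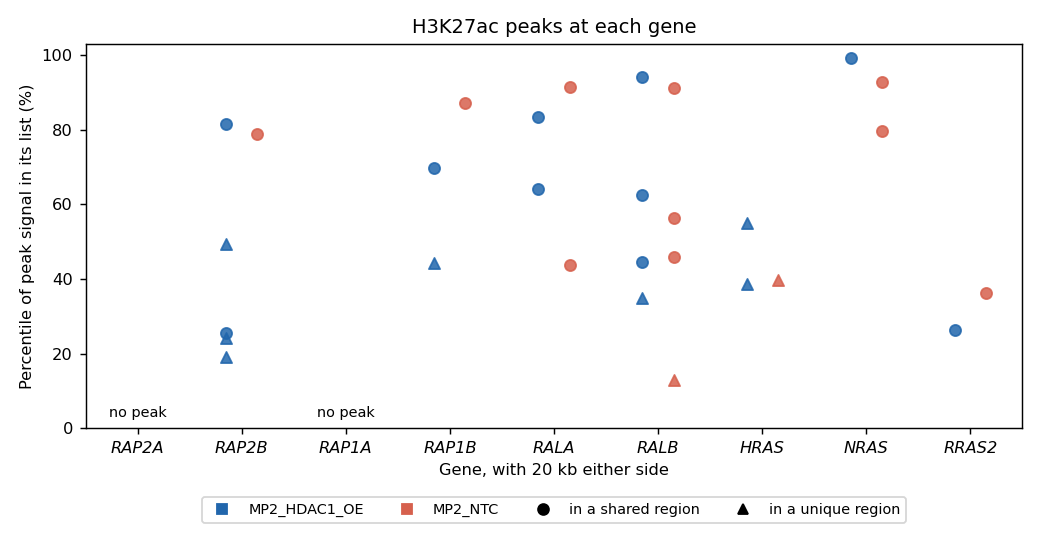
Each H3K27ac peak within 20 kb of the 9 genes, by gene on the horizontal axis, with the percentile of its signal in its own list on the vertical axis (blue, MP2_HDAC1_OE; red, MP2_NTC; circles, peaks of shared regions; triangles, peaks of unique regions). The *NRAS* peak of MP2_HDAC1_OE is the highest point at percentile 99.1, and *RAP2A* and *RAP1A* have no peak.

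All 7 genes with peaks had a peak of both lines at a start of transcription, defined as the stretch from 2 kb before to 1 kb after an annotated start, and none had one in a single line. Over the 15812 protein-coding genes with an annotated start, 39.4% had a peak of both lines there, 6.37% of MP2_HDAC1_OE only and 5.52% of MP2_NTC only. The strongest start peak of these 7 genes had a median percentile of 69.9 in MP2_HDAC1_OE and 78.9 in MP2_NTC, beside 77.1 and 75.2 over all genes with one. Of the 15 regions, 13 lay at the start of a protein-coding gene and 2 were distal, and both distal regions were unique to MP2_HDAC1_OE. That at *RALB* ended 1244 bp outside the 5′ end of the gene and was distal by the annotated start only. Taking either end of each gene as a start left 1 of these as distal and made 2 shared regions distal. Of all 7856 distal regions in the genome, 40.4% were unique to MP2_HDAC1_OE.

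The promoter sequences of 6 of the genes are shown to set close relatives with and without peaks beside each other (*RAP2A* with *RAP2B*, and *RAP1A* with *RAP1B*), and to show the *HRAS* promoter, which lay under a peak of one line alone, and that of *NRAS*, next to the strongest peak. Each runs from 250 bases before to 50 after the start, 5′ to 3′ on the strand of the gene, as given by RefSeq for GRCh38.p14. Capitals mark matches on either strand to the GC box GGGCGG, the AP-1 motif TGANTCA, the cAMP response element (CRE) TGACGTCA, the ETS motif CCGGAAG or the CCAAT box, written out as CCAAT.
RAP2A promoter, chr13:97433919-97434218, plus strand: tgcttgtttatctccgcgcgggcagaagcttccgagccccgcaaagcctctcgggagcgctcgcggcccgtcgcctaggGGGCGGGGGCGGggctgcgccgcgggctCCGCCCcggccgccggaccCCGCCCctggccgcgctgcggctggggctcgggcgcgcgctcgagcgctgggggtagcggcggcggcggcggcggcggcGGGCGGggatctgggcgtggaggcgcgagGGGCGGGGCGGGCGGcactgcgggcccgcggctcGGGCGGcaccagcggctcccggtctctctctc
RAP2B promoter, chr3:153161976-153162275, plus strand: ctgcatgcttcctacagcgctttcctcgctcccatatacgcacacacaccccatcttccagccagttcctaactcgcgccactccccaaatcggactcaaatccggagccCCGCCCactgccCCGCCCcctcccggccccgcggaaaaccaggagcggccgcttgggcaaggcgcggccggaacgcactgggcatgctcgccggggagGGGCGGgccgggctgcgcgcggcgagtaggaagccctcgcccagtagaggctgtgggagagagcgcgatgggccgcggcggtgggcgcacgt
RAP1A promoter, chr1:111541759-111542058, plus strand: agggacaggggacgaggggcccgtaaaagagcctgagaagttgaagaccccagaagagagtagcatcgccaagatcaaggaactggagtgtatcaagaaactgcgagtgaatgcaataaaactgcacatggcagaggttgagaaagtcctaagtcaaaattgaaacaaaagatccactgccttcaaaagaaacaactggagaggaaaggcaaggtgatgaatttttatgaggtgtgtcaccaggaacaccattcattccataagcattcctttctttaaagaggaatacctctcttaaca
RAP1B promoter, chr12:68610649-68610948, plus strand: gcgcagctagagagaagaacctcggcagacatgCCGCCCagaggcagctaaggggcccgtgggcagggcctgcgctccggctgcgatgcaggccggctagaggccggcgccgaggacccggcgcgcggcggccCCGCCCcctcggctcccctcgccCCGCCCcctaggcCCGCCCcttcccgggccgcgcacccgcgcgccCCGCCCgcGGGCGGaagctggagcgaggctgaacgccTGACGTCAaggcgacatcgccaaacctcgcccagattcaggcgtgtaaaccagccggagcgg
HRAS promoter, chr11:535527-535826, minus strand: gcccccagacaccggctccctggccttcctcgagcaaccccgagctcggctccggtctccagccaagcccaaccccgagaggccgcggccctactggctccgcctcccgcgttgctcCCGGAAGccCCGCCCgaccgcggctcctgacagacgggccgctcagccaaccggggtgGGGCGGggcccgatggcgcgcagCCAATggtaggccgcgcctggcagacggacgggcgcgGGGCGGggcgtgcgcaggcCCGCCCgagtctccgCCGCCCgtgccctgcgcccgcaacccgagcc
NRAS promoter, chr1:114716722-114717021, minus strand: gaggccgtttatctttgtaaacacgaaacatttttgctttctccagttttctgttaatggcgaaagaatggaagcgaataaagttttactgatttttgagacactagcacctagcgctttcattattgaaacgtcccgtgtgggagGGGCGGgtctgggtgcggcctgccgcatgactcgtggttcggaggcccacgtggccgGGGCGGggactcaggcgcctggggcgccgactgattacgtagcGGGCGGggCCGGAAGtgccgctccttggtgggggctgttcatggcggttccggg
Among 35116 RefSeq promoters of this length, 45% held the GC box, 7.71% the AP-1 motif, 1.85% the CRE, 10.3% the ETS motif and 34.6% the CCAAT box, and the median GC content was 58.7% with 14 CG dinucleotides. The *RAP2A* promoter had a GC content of 82%, 52 CG dinucleotides and 9 GC boxes, more of each than the *RAP2B* promoter with 70.3%, 34 and 3. The *RAP1A* promoter had 43.7% GC, 4 CG dinucleotides and no match to any of the motifs, while that of *RAP1B* had 75.7%, 40 CG dinucleotides, 6 GC boxes and 1 CRE. Only 1 start of *RAP1A* was annotated, at the outer end of the gene, and any other start was not examined. The *HRAS* promoter (78% GC) held 5 GC boxes, 1 ETS motif and 1 CCAAT box, and the *NRAS* promoter (57.3% GC) held 3 GC boxes and 1 ETS motif. Of the promoters not printed, that of *RALA* held 2 GC boxes and 1 ETS motif, and that of *RALB* 2 GC boxes and 2 CCAAT boxes. No promoter of the 9 genes had an AP-1 match. A match is a description of the letters in these windows and was not tested for binding.

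*NRAS*, which encodes a Ras protein that activates the RAF and MAP kinase pathway, had the highest-ranked peak among the 9 genes in either line. *RRAS*, a Ras gene outside this set that was named after its values were seen, had higher ones near its own start (signal 125, percentile 99.2 in MP2_HDAC1_OE, and 136, percentile 98.9 in MP2_NTC). The *NRAS* gene lies on the minus strand of chromosome 1 (114704469 to 114716771, hg38), and a single shared region of 820 bp, chr1:114716330-114717149, covered its start. In MP2_HDAC1_OE the peak at 114716347 to 114716779 had a signal of 124 (percentile 99.1, rank 221 of 25045, score 1000), with its summit 165 bp inside the gene. In MP2_NTC a peak at 114716338 to 114716702 had a signal of 97.4 (percentile 92.8, rank 1625 of 22569) and overlapped a broader one of signal 72.9 (percentile 79.6), both with a score of 1000. The narrow peaks covered nearly the same bases, since 356 bp were common and made up 82.2% of the MP2_HDAC1_OE peak and 97.5% of the MP2_NTC peak. The broader MP2_NTC peak, of the common width of 820 bp, reached further upstream as called. It covered all 300 bases of the promoter printed above, of which the MP2_HDAC1_OE peak covered 58.

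*HRAS*, the Ras gene on chromosome 11 (532242 to 535576, minus strand), was the sole one of the 9 genes with peaks in both lines and no shared region. Among the other Ras subfamily GTPases counted below, *RIT1* and *NKIRAS1*, named after their values were seen, had the same pattern. In MP2_HDAC1_OE *HRAS* carried a unique region of 1035 bp at 534292 to 535326, inside the gene, made of a peak of signal 49.1 (percentile 55.0, score 874) with its summit 874 bp past the start and an overlapping one of signal 40.9 (percentile 38.5, score 623) with its summit 659 bp past it. In MP2_NTC a unique peak at 535503 to 536322 (signal 43.9, percentile 39.8, score 756) had its summit 337 bp upstream and spanned the start itself. Thus the summits of the lines lay on different sides of the same start, with 176 bases between the intervals. The MP2_NTC peak covered all 300 bases of the *HRAS* promoter and the MP2_HDAC1_OE peaks covered 0. Each of these peaks was called at the common width of 820 bp. The MP2_NTC percentile was 26.5 among non-overlapping intervals. When peaks up to 500 bp apart were merged, *HRAS* had 1 shared region and no unique one. Of the regions on chromosome 11, 35.4% were unique to MP2_HDAC1_OE, against 28.6% over the genome, and the part of this in the result was not tested.

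*RRAS2*, which encodes the Ras-related protein TC21, had the lowest-ranked strongest start peak of the 7 genes with peaks, in each line. The annotation gave 4 starts on the minus strand of chromosome 11, and the peaks lay at the internal starts 14358467 and 14359183, while the outermost start at 14364506 and the start at 14342132 lay under no peak. The MP2_HDAC1_OE peak at 14357952 to 14358771 had a signal of 34.3 (percentile 26.4, score 641) and its summit lay 105 bp past the start at 14358467. The MP2_NTC peak at 14358453 to 14359272 had a signal of 41.9 (percentile 36.2, score 658) and its summit lay 320 bp past the start at 14359183. Among non-overlapping intervals the percentiles were 13.3 in MP2_HDAC1_OE and 22.7 in MP2_NTC. By the deposited score they were nearly equal, at 20.1 in MP2_HDAC1_OE and 20.2 in MP2_NTC. The peaks, both called at 820 bp, shared 319 bp, 38.9% of each. They so counted as unique to each line when an overlap of 50% of both peaks was required.

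**Figure D2:**
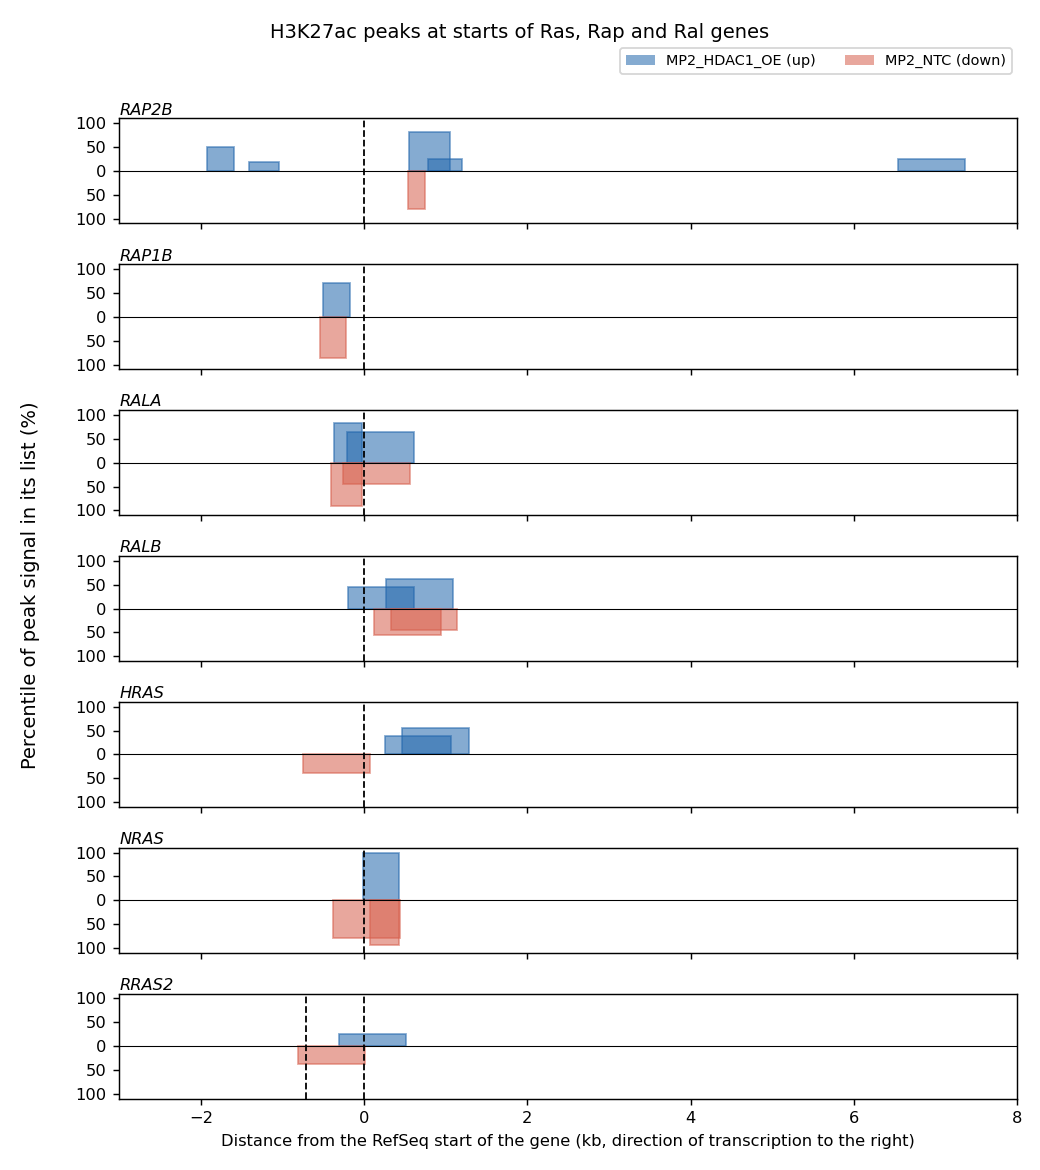
H3K27ac peaks around the start of each of the 7 genes with peaks, with distance from the start in kb on the horizontal axis (transcription to the right, dashed line at each start) and the percentile of the peak signal as the height of each box, upward in blue for MP2_HDAC1_OE and downward in red for MP2_NTC. The *HRAS* boxes of the lines do not overlap, and *RAP2B* has blue boxes without a red partner before the start and near 7 kb; for *RRAS2*, 0 is the start at 14358467, and peaks outside the plotted range are not drawn.

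*RAP2B*, a Rap gene on chromosome 3 (153162226 to 153170627, plus strand), had 3 regions unique to MP2_HDAC1_OE, a number that 3.12% of all protein-coding genes reached. Away from its promoter, an 820 bp peak at chr3:153168763-153169582 was unique to MP2_HDAC1_OE, with a signal of 32.5 (percentile 24.1) and a score of 555, the lowest score among the peaks of the family. Its summit lay 6947 bp past the start and inside the gene. Both other unique regions lay upstream, at 153160296 to 153160632 (signal 46.1, percentile 49.4, summit 1726 bp before the start) and at 153160814 to 153161182 (27.7, percentile 19.0, 1229 bp before it). These 3 peaks all ranked below the median of their list. The count of 3 depended on the setting, and the 3.12% refers to the main setting only. When peaks up to 500 bp apart were merged, the upstream regions joined into the same region. The peaks at percentiles 19.0 and 24.1 fell outside the top 75% of peaks by signal. The shared region lay past the start and was held by the strongest peak of each line, with a signal of 69.8 (percentile 81.7, summit at 786 bp) in MP2_HDAC1_OE and 72.1 (percentile 78.9, summit at 730 bp) in MP2_NTC. The 209 bp MP2_NTC peak shared 202 bp with the MP2_HDAC1_OE peak, 40.3% of the latter. In all, called intervals covered 2172 bp of the *RAP2B* window in MP2_HDAC1_OE and 209 bp in MP2_NTC. The 300 promoter bases printed above lay under no peak of either line.

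*RAP2A*, a close relative of *RAP2B*, lay in a stretch of chromosome 13 (gene at 97434169 to 97469128) without peaks. The nearest peak of MP2_HDAC1_OE was 173219 bp from the gene (signal 21.2, percentile 11.1) and the nearest of MP2_NTC was 174561 bp from it (signal 43.7, percentile 39.6). Its GC-rich promoter thus carried no called peak in these cells.

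*RAP1A*, which encodes a Rap protein of integrin activation and cell adhesion, is the longest gene of the set at 174683 bp (chromosome 1, 111542009 to 111716691) and also had no peak within it or the 20 kb around it. The nearest peaks were just outside, 21667 bp from the gene in MP2_HDAC1_OE and 21785 bp in MP2_NTC, in a shared region at the start of *INKA2*.

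*RAP1B*, its close relative on chromosome 12 (68610899 to 68671901, plus strand), had a shared region just upstream of its start. The MP2_HDAC1_OE peak at 68610399 to 68610722 had a signal of 58.5 (percentile 69.9, score 915) and the MP2_NTC peak at 68610353 to 68610682 a signal of 84.6 (percentile 87.3, score 1000). They shared 284 bp, and their summits were 26 bp apart, 370 and 396 bp before the start. This was the largest difference in percentile among the shared regions of the family, 17.4 points lower in MP2_HDAC1_OE, and 39.7% of all shared regions differed by more. A region unique to MP2_HDAC1_OE at 68686170 to 68686989 (signal 43.6, percentile 44.3, score 680) lay 14269 bp beyond the gene, at the start of *NUP107*, which encodes a nuclear pore protein. On chromosome 12, 33.7% of all regions were unique to MP2_HDAC1_OE, and the part of this in the result was not tested.

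*RALA*, whose product regulates exocytosis through the exocyst, had a single shared region of 1022 bp on chromosome 7 at 39623161 to 39624182, around the start at 39623572. In MP2_HDAC1_OE it held a peak of signal 71.9 (percentile 83.3, score 1000) with its summit 188 bp before the start and one of signal 54.6 (percentile 64.2, score 702) with its summit 201 bp after it. In MP2_NTC the matching peaks had signals of 93.3 (percentile 91.4) and 45.9 (percentile 43.7), both with a score of 1000, with summits 206 bp before and 157 bp after the start. The peaks matched in pairs, with 100% of the upstream MP2_HDAC1_OE peak and 94.6% of the downstream one inside a peak of MP2_NTC. The ranks of the upstream and downstream peaks were thus further apart in MP2_NTC than in MP2_HDAC1_OE, and the promoter lay wholly under peaks of both lines.

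*RALB*, the other Ral gene (chromosome 2, 120240070 to 120294710), had 4 regions in its window. At the annotated start, 120252852, a shared region of 1347 bp held MP2_HDAC1_OE peaks of signal 43.7 (percentile 44.5) and 53.4 (percentile 62.5) and MP2_NTC peaks of signal 53.0 (percentile 56.3) and 47.0 (percentile 45.8). All 4 summits lay after the start, from 207 bp to 734 bp past it. The second distal region of the family by the annotated start, chr2:120238007-120238826, was unique to MP2_HDAC1_OE, with a signal of 39.2 (percentile 35.0) and a score of 591. Its summit was 14435 bp before the annotated start, and the peak ended 1244 bp outside the outer end of the gene. *RALB* lies on the plus strand, so this outer end is its 5′ end, and with that end as the start the peak would lie at the promoter. Use of that start was not examined. The other regions lay at the start of *TMEM185B*, over 16 kb from the gene, where a shared region was strong in both lines, with signals of 92.0 (percentile 94.0) in MP2_HDAC1_OE and 92.8 (percentile 91.2) in MP2_NTC. A small MP2_NTC peak of signal 24.3 (percentile 13.0, score 944) was called unique there, with 114 bases between it and the MP2_HDAC1_OE peak.

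The ranks in the 7 shared regions were compared between the lines as the percentile of the strongest peak in MP2_HDAC1_OE minus that in MP2_NTC. The difference was positive at *NRAS* (6.32 points), *RALB* (6.24), *TMEM185B* in the *RALB* window (2.80) and *RAP2B* (2.77). It was negative at *RALA* (-8.11), *RRAS2* (-9.75) and *RAP1B* (-17.4). By the deposited score, the order of the lines turned at *RAP2B*, with percentiles of 65.4 in MP2_HDAC1_OE and 79.8 in MP2_NTC. At *RALA*, *NRAS* and *TMEM185B* the strongest peaks of both lines had the top score of 1000. Their score percentiles of 83.1 and 79.8 were those of every peak with that score in its list. The score could thus not order the lines there. Over all 9477 shared regions the median difference was 1.51 points, and the middle 50% ran from -10.4 to 15.6. Differences over 20 points were seen in 0 of the 7, beside 19.7% of all shared regions in favour of MP2_HDAC1_OE and 14.7% in favour of MP2_NTC. With ranks taken among non-overlapping intervals, *RAP1B* alone passed 20 points, at -22.5.

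**Figure D3:**
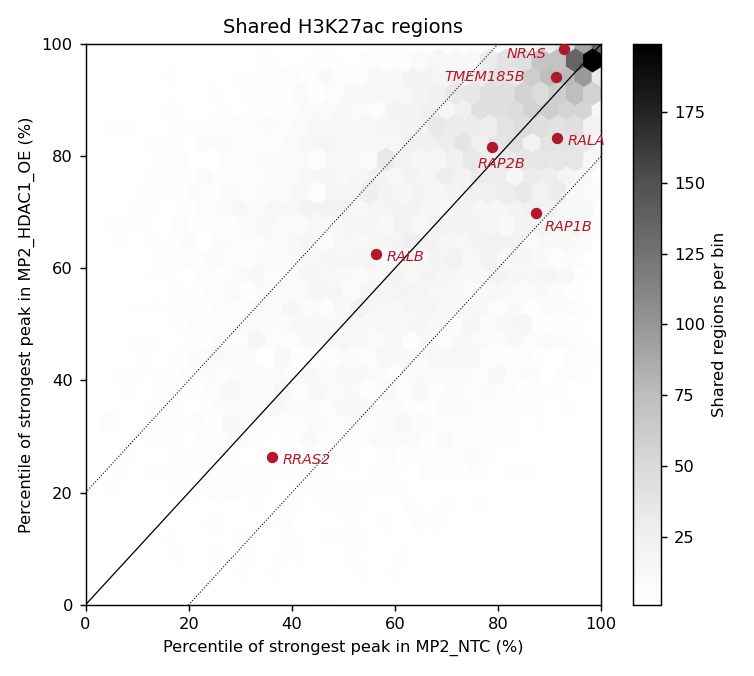
Percentile of the strongest peak of each shared region in MP2_NTC (horizontal axis) and MP2_HDAC1_OE (vertical axis), as grey bins for all 9477 shared regions and red points for the 7 at these genes, with the line of equal percentiles and dotted lines 20 points away from it. All 7 red points lie between the dotted lines, and *RAP1B* is the closest to one, at 17.4 points below equality.

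The regulators and partners of these GTPases were counted in the same way, from 4 lists with 82 genes. Of 25 other Ras subfamily GTPases, 14 had a region of either line, 7 one unique to MP2_HDAC1_OE, 4 one unique to MP2_NTC and 9 a shared one. Among 20 exchange factors the counts were 12, 6, 4 and 8, among 19 GTPase-activating proteins 15, 4, 6 and 12, and among 18 effectors 13, 5, 4 and 10. Over all protein-coding genes the matching shares were 63.4%, 26.4%, 23.5% and 51.1%. The share with a region unique to MP2_HDAC1_OE was thus highest among the 9 genes at 44.4% and lowest among the GTPase-activating proteins at 21.1% (95% Wilson interval 8.51% to 43.3%), with intervals that overlapped. Windows also differed in length, with a median of 94.6 kb for the 9 genes, 49.6 kb for the other GTPases, 177 kb for exchange factors, 195 kb for GTPase-activating proteins, 126 kb for effectors and 64.2 kb over all genes, and the part of length in these counts was not tested.

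**Figure D4:**
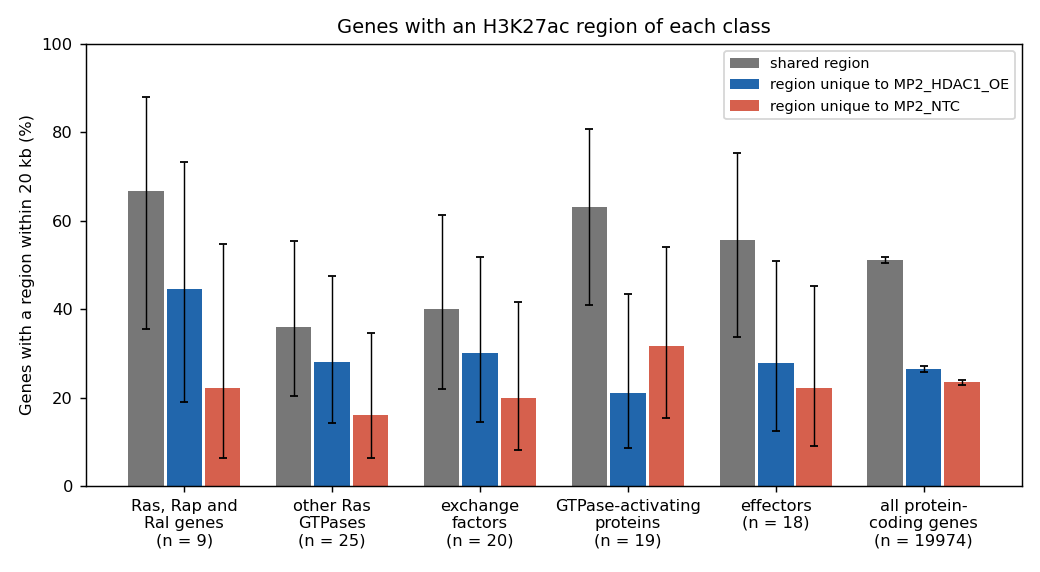
Share of genes (%) with a shared region (grey), a region unique to MP2_HDAC1_OE (blue) or a region unique to MP2_NTC (red) in the gene and 20 kb either side, for the 9 Ras, Rap and Ral genes, 4 lists of related genes and all protein-coding genes. Error bars are 95% Wilson intervals and cover counting error only; the blue bar of the 9 genes stands at 44.4% with an interval from 18.9% to 73.3%, around the 26.4% of all genes.

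At their starts, the listed genes with an annotated start had a peak of both lines in 2 of 17 other GTPases, 7 of 19 exchange factors, 7 of 14 GTPase-activating proteins and 8 of 15 effectors, beside 7 of 9 for the Ras, Rap and Ral genes. Over all protein-coding genes with an annotated start the share was 39.4%. Of the 82 listed genes, 9 had regions of MP2_HDAC1_OE only and 4 of MP2_NTC only, beside 5.47% and 4.45% of all protein-coding genes. Of the GTPases, regions of MP2_HDAC1_OE alone lay at *RASL10A* (strongest signal 76.6, percentile 86.6, nearest to the start of *GAS2L1*), *RASL12* (50.9, percentile 58.1, nearest to *MTFMT*) and *RASL10B* (36.4, percentile 29.6). Of the exchange factors, *RASGRP2*, which acts on Rap1 (59.6, percentile 71.2, nearest to *NRXN2*), *RAPGEF4*, the cAMP-activated Rap exchange factor EPAC2 (58.1, percentile 69.3), and *RALGPS2*, which acts on Ral (37.5, percentile 31.7), had peaks of MP2_HDAC1_OE alone. *RAPGEF1*, an exchange factor of Rap1, had peaks of MP2_NTC alone (42.6, percentile 37.5). Among the inactivators, *DAB2IP*, a Ras GTPase-activating protein, had a peak in MP2_HDAC1_OE only (39.7, percentile 36.1), while *RALGAPA2*, a subunit of the Ral GTPase-activating complex (51.0, percentile 52.9), and *RASAL3* (49.5, percentile 50.2, nearest to *WIZ*) had peaks in MP2_NTC only. Of the effectors, *MINK1* (20.3, percentile 10.0) and the Rap effector *RADIL* (16.2, percentile 5.37) had weak peaks in MP2_HDAC1_OE only, and *MAP4K4* (37.9, percentile 28.3) had peaks in MP2_NTC only.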

How the data were processed

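H3K27ac ChIP-sequencing came from 8 samples, 2 H3K27ac and 2 control samples for each of 2 lines. The authors ran the ENCODE pipeline and deposited 1 list per line, the optimal set of the irreproducible discovery rate (IDR) test over both samples. The submitters' processing notes name BWA 0.7.12, Picard 1.88 and hg38, and the peak caller is not given in the sources used here. Each deposited peak has an interval, a signal, a score, a −log10 value and a summit offset. Depth is unknown. Read-level values per sample were not analysed here.

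Peaks sharing 1 bp were merged into regions, and a region belonged to a gene when a peak overlapped the gene and 20 kb either side. Starts came from the RefSeq promoter table (GRCh38.p14) for 15812 genes, and both ends were used for 4162 others. A region was distal when it touched no stretch from 2 kb before to 1 kb after a protein-coding start. No test was possible with 1 list per line. The Wilson interval was at 95% and covers counting error only. The genes named were the 9 genes, genes whose starts lay under or nearest their peaks, and up to 4 genes per list whose regions were all unique to 1 line, by signal. All 82 listed genes were found by symbol. The genes and lists were chosen with earlier results of these data known. Alternatives covered the merging, windows, thresholds, ranking and starts. The work used Python 3.11.15 with pandas 2.3.3, numpy 2.4.6, matplotlib 3.10.9 and scipy 1.17.1. Scripts were tested on simulated data.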

Additional observations from a re-analysis of the deposited data

How the results depend on the processing

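Under other settings, 60 recomputed counts stayed within 1.5 times the reported value and 18 did not. Regions unique to MP2_HDAC1_OE numbered 10 instead of 6 when single peaks had to overlap by 50% of both, and 10 with 50 kb either side. Regions unique to MP2_NTC numbered 4 instead of 2 under the overlap rule (at 4 genes), 0 with peaks up to 500 bp apart merged (at 0 genes), 1 in the top 75% of peaks or with 5 kb either side (at 1 gene each), and 6 with 50 kb. Shared regions numbered 14 instead of 7 with 50 kb. Distal regions unique to MP2_HDAC1_OE numbered 1 instead of 2 in the top 75% of peaks. With 5 kb either side, 4 instead of 7 other Ras subfamily GTPases had a region unique to MP2_HDAC1_OE, and ranking among non-overlapping intervals put 1 instead of 0 shared regions over 20 points apart. In alternatives chosen after seeing the data, taking either end of each gene as a start gave 1 distal region unique to MP2_HDAC1_OE and 2 shared ones, and keeping regions nearest to the gene's own start gave 1 region unique to MP2_NTC. The overlap rule made *RAP2B* and *RRAS2* unique in both lines, and merging over 500 bp made *HRAS* shared; the cause of the other changes was not tested beyond the construction of each setting. Of the recomputed percentiles of strongest peaks and their differences, 31 moved by a narrower rule and 4 did not. Ranks among non-overlapping intervals lowered every percentile of a strongest peak, for example from 69.9 to 59.1 at *RAP1B* in MP2_HDAC1_OE. Percentiles at *RRAS2* and the MP2_NTC percentile at *HRAS* moved by over 1.5 times. Ranking by the deposited score turned the order of the lines at *RAP2B*. At *RALA* both strongest peaks scored 1000, so the score could not order the lines. The 7 differences kept their sign with ranks among non-overlapping intervals, and were not recomputed by score. No paired analysis was possible because the samples behind a list cannot be separated, and leaving out a replicate could likewise not be done. Depth was unknown, so a missing peak sets no upper limit on the acetylation of a gene.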

Other observations

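Between 20 and 50 kb from the genes, 15 further regions were found, 7 of them shared, 4 unique to MP2_HDAC1_OE and 4 unique to MP2_NTC. *RAP2B* had the widest, a shared distal region of 3790 bp at chr3:153208603-153212392, made of 4 peaks of MP2_HDAC1_OE and 3 of MP2_NTC, with the strongest at percentile 43.8 in MP2_HDAC1_OE and percentile 75.8 in MP2_NTC. It was flanked by regions unique to MP2_HDAC1_OE at 153207155 (percentile 14.1) and 153218985 (percentile 0.280). *RAP1A*, without a peak in the gene or 20 kb around it, had a shared distal region 33.7 kb away at chr1:111507959-111508352, at percentile 80.1 in MP2_HDAC1_OE and percentile 91.1 in MP2_NTC. *RALA* had a region unique to MP2_NTC beyond the downstream end of its gene (percentile 53.7). Which gene, if any, these distal regions act on was not measured.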
